A study of Homo sapiens with 2 samples.

Results

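The replication-dependent histone genes were chosen by name: protein-coding genes of RefSeq on GRCh38.p14 whose symbols begin with H1-, H2AC, H2BC, H3C or H4C followed by a digit. The rule gave 74 genes of 20033 protein-coding genes. They fall in 17 H2A, 19 H2B, 13 H3, 15 H4 and 10 H1 genes. The rule also takes in a few linker histone genes that do not belong to the S-phase clusters, such as H1-7, H1-8 and H1-10, and these are counted with the rest. The data are CUT&Tag peak lists from TC32, an established Ewing sarcoma cell line, with 1 library per group: one labelled siEWS-FLI, the other siNEG. CUT&Tag marks places where an antibody's target sits on DNA, here for EWS-FLI, the fusion of EWSR1 with the ETS factor FLI1. The labels name no genetic change beyond the line itself, do not spell out siNEG and do not name the antibody. With 1 library per group, no difference below has a replicate check or a test, and every interval given covers counting error only.

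Core histones H2A, H2B, H3 and H4 form the protein spool of the nucleosome, and H1 binds the linker DNA between spools. The replication-dependent copies are small genes without introns, packed in clusters, and are transcribed mainly in S phase, when new chromatin is built. Their mRNAs end in a stem-loop in place of a poly(A) tail. Many H2A and H2B genes stand head to head as divergent pairs with one short promoter between them, often with a CCAAT box, which NF-Y binds, an octamer, which POU2F1 (OCT-1) binds, and a TATA box. EWS-FLI binds the ETS core GGAA, singly or in repeats.

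Promoters are shown first, because 18 of 28 siNEG summits at histone genes lay within 250 bases of a start, 13 of them inside a printed-length promoter. RefSeq on GRCh38.p14 gave a promoter, 250 bases before to 50 bases after the start, for 67 of the 74 genes. Each sequence reads 5′ to 3′ on the gene's own strand, and capitals mark the ETS core GGAA or its complement TTCC. The first 5 belong to members with the highest siNEG pileups, the number of reads over the summit of a called interval. H2BC11 is at chr6:27132746-27133045 (minus strand), H2BC10 at chr6:26272681-26272980 (plus), H4C8 at chr6:26285485-26285784 (minus), H2AC21 at chr1:149887916-149888215 (minus) and H2AC6 at chr6:26123922-26124221 (plus). H2BC3, at chr6:26043664-26043963 (minus), is shown because it had the highest siEWS-FLI pileup of the group. H4C6, at chr6:26240143-26240442 (plus), and H2BC9, at chr6:26251364-26251663 (plus), had no summit within 10 kb in either list.
H2BC11: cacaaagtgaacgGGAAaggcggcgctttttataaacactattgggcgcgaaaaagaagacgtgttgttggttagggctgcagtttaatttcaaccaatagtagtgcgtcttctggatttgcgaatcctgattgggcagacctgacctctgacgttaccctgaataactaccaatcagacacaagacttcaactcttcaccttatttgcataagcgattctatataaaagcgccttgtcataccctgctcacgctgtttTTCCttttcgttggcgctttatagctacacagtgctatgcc
H2BC10: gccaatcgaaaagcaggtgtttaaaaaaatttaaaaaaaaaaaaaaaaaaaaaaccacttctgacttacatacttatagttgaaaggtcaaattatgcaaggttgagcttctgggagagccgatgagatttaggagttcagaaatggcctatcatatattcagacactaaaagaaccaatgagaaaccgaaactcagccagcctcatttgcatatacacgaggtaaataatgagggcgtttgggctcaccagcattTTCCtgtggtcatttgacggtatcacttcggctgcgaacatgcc
H4C8: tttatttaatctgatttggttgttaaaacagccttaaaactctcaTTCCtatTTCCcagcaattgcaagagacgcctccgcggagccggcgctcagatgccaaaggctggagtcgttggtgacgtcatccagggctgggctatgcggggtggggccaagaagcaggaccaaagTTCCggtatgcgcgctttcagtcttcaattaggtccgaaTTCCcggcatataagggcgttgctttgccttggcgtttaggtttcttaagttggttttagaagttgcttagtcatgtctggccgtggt
H2AC21: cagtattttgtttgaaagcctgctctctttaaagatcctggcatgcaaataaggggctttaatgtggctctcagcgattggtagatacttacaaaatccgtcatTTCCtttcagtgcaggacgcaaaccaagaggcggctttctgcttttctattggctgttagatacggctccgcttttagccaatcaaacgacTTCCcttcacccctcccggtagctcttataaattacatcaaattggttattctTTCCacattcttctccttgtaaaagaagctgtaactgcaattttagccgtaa
H2AC6: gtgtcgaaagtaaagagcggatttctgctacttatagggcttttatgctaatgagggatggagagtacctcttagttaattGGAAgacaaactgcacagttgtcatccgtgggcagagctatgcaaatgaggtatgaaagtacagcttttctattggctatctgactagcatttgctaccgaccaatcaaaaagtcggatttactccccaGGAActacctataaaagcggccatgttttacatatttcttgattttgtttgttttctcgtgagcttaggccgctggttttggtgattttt
H2BC3: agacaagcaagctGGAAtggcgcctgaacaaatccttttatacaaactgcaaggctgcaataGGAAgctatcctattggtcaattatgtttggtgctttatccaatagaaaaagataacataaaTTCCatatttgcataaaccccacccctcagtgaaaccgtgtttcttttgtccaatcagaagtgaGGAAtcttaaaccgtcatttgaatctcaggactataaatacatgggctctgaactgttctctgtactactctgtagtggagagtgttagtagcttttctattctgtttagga
H4C6: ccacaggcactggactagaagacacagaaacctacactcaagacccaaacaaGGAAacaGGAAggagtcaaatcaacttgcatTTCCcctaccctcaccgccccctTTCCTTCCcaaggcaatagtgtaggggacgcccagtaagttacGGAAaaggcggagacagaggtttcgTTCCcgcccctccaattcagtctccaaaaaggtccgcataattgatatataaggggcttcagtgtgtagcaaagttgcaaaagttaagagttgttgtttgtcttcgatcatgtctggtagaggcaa
H2BC9: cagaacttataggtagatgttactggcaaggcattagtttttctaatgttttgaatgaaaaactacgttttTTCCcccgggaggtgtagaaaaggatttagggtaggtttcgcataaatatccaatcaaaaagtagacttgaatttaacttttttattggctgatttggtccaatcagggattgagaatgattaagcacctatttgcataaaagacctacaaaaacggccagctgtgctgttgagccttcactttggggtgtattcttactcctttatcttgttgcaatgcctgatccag

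The siNEG list held 16284 intervals and the siEWS-FLI list 6370, with median summit pileups of 8 and 5 reads. Pileups are raw. Averaged over the genome, siNEG had 0.348 reads over each base and siEWS-FLI had 0.239, a ratio of 0.687 (siEWS-FLI over siNEG). That average includes mitochondrial reads. With an assumed mappable genome of 2700000000 bases and without the reads of 1 mitochondrial 10 kb window, the ratio was 0.562. Of 8 loci bound or used as targets in Ewing sarcoma, 5 had a siNEG summit within 1 kb and none had a siEWS-FLI summit. None of 8 marker genes of liver, blood and epithelium had a summit within 1 kb in either list. Of all protein-coding genes 34.1% had a siNEG and 12.3% a siEWS-FLI summit within 1 kb. Within 10 kb, 6 of the Ewing loci and 3 of the markers had a siNEG summit, and 1 of each a siEWS-FLI summit. All protein-coding genes gave 49.5% and 22.5% there. With 8 genes in each list, nothing is read from these counts. Peak lists measure binding, so the labelled cell type was not checked by expression.

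Histone genes had a called siNEG site at their ends in 37 of 74 cases, 50%, where 34.1% of all protein-coding genes did. "At the end" means a summit within 1 kb of either end of the gene. With siEWS-FLI the count was 15 of 74, 20.3%, where 12.3% of all protein-coding genes had one. By gene, 14 had a summit in both lists, 23 in the siNEG list alone, 1 in the siEWS-FLI list alone and 36 in neither; over all protein-coding genes 1.14% had one in the siEWS-FLI list alone. Neighbours share summits, so the 37 genes rest on 28 distinct siNEG intervals and the 15 genes on 12 siEWS-FLI intervals. Of 527 protein-coding genes shorter than 1 kb, histone genes among them, 10.8% had a siNEG and 4.74% a siEWS-FLI summit; of the 62 histone genes that short, 30 and 13 did. Within 10 kb, 60 of 74 (81.1%) had a siNEG summit and 28 (37.8%) a siEWS-FLI summit, against 49.5% and 22.5% of all protein-coding genes. The 10 kb windows of clustered genes overlap: they hold just 30 siNEG and 14 siEWS-FLI intervals.

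These counts depend on how far down the lists one reads. With both lists held to 6370 intervals by −log10 q, which ends the siNEG list at 7.02, 7 histone genes (9.46%) had a siNEG summit within 1 kb, where 20.4% of all protein-coding genes did. The 15 with a siEWS-FLI summit were then set beside the same 12.3%. At −log10 q of at least 5, the counts were 13 with siNEG (17.6%, against 25.1% of all genes) and 6 with siEWS-FLI (8.11%, against 6.14%). Within 10 kb, equal lists gave 13 with siNEG (17.6%, against 29.6%), and the q limit gave 25 with siNEG (33.8%, against 36.1%) and 10 with siEWS-FLI (13.5%, against 9.58%). The siNEG share of histone genes was thus above that of all genes in the authors' full list and below it in both lists cut by −log10 q. With intervals wider than 200 bases alone, siNEG counts were 30 within 1 kb (40.5%, against 30% of all genes) and 47 within 10 kb (63.5%, against 42.3%). The siEWS-FLI counts were then 9 (12.2%, against 7.66%) and 13 (17.6%, against 11.9%).

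**Figure D1:**
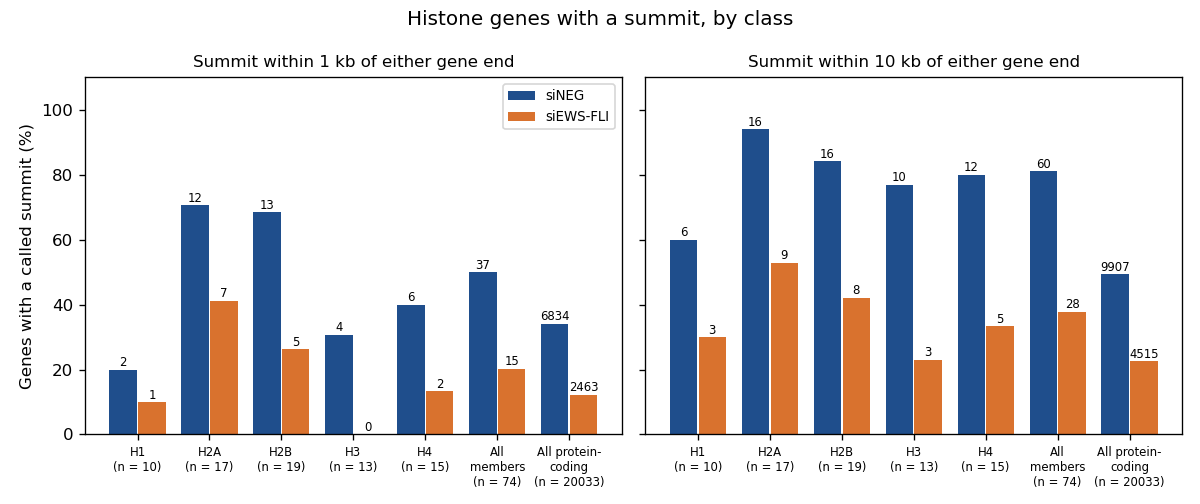
Share of genes with a called summit within 1 kb (left) or 10 kb (right) of either gene end, in percent, for each histone class, for all 74 members and for all 20033 protein-coding genes; blue bars are siNEG, orange bars siEWS-FLI, 1 library each, and the number on a bar is the count of genes. Within 1 kb the H2A and H2B bars stand at 12 of 17 and 13 of 19 with siNEG, and no H3 gene has a siEWS-FLI summit.

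The classes differed in their counts. Within 1 kb, siNEG summits lay at 12 of 17 H2A genes and 13 of 19 H2B genes, against 6 of 15 H4, 4 of 13 H3 and 2 of 10 H1 genes, beside 34.1% of all protein-coding genes. The H3 share (30.8%) and the H4 share (40%) lay close to that of all genes. siEWS-FLI summits lay at 7 H2A, 5 H2B, 2 H4 and 1 H1 gene and at no H3 gene, beside 12.3% of all genes. The difference between classes was not tested, and divergent H2A and H2B genes count the same interval once each. As distinct intervals, H2A genes had 13, H2B 14, H4 7, H3 5 and H1 2 with siNEG. The strongest interval was 28 reads for both H2A and H2B, 14 for H4 and 9 for H3. Within 10 kb the classes lay closer, at 16 of 17 H2A, 16 of 19 H2B, 12 of 15 H4, 10 of 13 H3 and 6 of 10 H1 genes with siNEG, beside 49.5% of all genes.

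The called sites were many and weak. Over the 28 siNEG intervals at histone gene ends the pileup ran from 6 to 28 reads with a median of 9, where the median over all 5885 siNEG intervals at protein-coding gene ends was 12. One of the 28 (3.57%) reached 20 reads, against 29.7% of the 5885. Most, 18 of 28, had 8 to 11 reads. The median fold enrichment in the authors' list was 5.38, against 7.35 at all gene ends. The local background behind that fold, the reads in the 10 kb around a summit, had a median of 43.0 against 36.0 at all gene ends and 17.4 for the library as a whole. It ran from 18 reads at H3C6 to 95 at H2AC20 and H2AC21, and includes the reads of the peak itself.

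Within the first group on chromosome 6, which holds 34 members from H2AC1 to H4C8 over 559 kb, 18 genes had a siNEG and 7 a siEWS-FLI summit within 1 kb. This group is one part of what has long been known as the major histone cluster. It carried 17 siNEG summits, 3.04 per 100 kb against 0.487 over the whole chromosome, and 8 siEWS-FLI summits, 1.43 against 0.205. The chromosome average takes in stretches without genes, and the span counts take in summits at other genes. They leave out both H4C8 sites described below, whose summits in either list lie just beyond the far end of the span. By gene, the siNEG share was 52.9%, against 34.1% of all protein-coding genes, and the siEWS-FLI share 20.6%, against 12.3%. The H2AC1 and H2BC1 pair, expressed in testis and set apart at the near end, had none within 10 kb. Of 6 other protein-coding genes in the span (SLC17A1 to SLC17A4, TRIM38 and HFE), TRIM38 alone had a siNEG summit within 1 kb, with 27 reads.

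Among the histone genes of this group the highest siNEG pileups belonged to H2BC10 and H4C8. H2BC10, an H2B gene, had 14 reads (95% Poisson interval 7.65 to 23.5) at a summit 45 bases upstream of its start and no siEWS-FLI interval. A siEWS-FLI pileup of 7 or fewer there, over the same local background, would not have been called. Over the genome average of the siEWS-FLI library the limit was 3. H4C8, an H4 gene at the far end of the group, had a pair of sites called in both libraries. The first, 220 bases upstream of its start, had 14 reads with siNEG and 12 (6.20 to 21.0) with siEWS-FLI, a ratio of 0.857 (0.362 to 1.997). The second had 12 and 8 reads, a ratio of 0.667 (0.236 to 1.77), and its siNEG summit lay 99 bases from the tRNA gene TRX-CAT1-2. At both sites the libraries' counting intervals overlap.

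At H2BC3 the siEWS-FLI pileup was the higher. This H2B gene had 10 siNEG reads (4.80 to 18.4) at a summit inside the gene, 103 bases downstream of its start and so just past the printed promoter. The siEWS-FLI summit, 8 bases from it, had 19 reads (11.4 to 29.7). The ratio was 1.90 (0.841 to 4.57), an interval that includes equal pileups but lies above both library ratios, 0.562 and 0.687. The site was singled out for the highest siEWS-FLI pileup of the group. The interval does not allow for that choice, so nothing is read from its place above the library ratios. Its siEWS-FLI −log10 q of 16.2 exceeded the siNEG value of 4.07, each in its own list. Of 8 shared intervals at histone gene ends it was the 1 with more reads in the siEWS-FLI library, where 2.16% of 1663 shared intervals at all gene ends had more (2.82% of 1989 within 10 kb). That share depends on strength: at 8 to 11 siNEG reads, the class of H2BC3, 8 of 151 shared intervals at all gene ends had more, and at 4 to 7 reads 28 of 85. H2AC4, the neighbouring H2A gene, was the 1 member with a siEWS-FLI summit and no siNEG summit within 1 kb, at 7 reads (2.81 to 14.4). Over the siEWS-FLI local background, from the library with fewer reads, a siNEG pileup of 3 or fewer would not have been called there. The siNEG local background at that spot is not known, and a higher one would raise this limit.

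H2BC4 and H2AC6, a divergent pair in the same group, shared 1 interval in each list. The siNEG summit of 12 reads (6.20 to 21.0) lay 110 bases upstream of the H2BC4 start and 136 upstream of the H2AC6 start, in the gap between the genes. The siEWS-FLI summit of 8 reads lay 108 bases from it, a ratio of 0.667 (0.236 to 1.77). H2BC4 also had a siEWS-FLI summit of 4 reads at its other end. H1-2, a linker histone gene, and H4C5 each had a summit in both lists, but in intervals that do not overlap: 6 reads with siNEG and 5 with siEWS-FLI at H1-2, and 9 and 5 at H4C5.

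The other members of this group with a siNEG summit within 1 kb had 6 to 10 reads and no siEWS-FLI interval within 1 kb. H4C3 and the pair H2BC8 and H2AC8 had 10 reads. H3C1 and H4C1, which encode H3 and H4, had 9 reads at a shared interval, and H2BC5 had 9 beyond the far end of its transcript, in the non-coding H2BC6-AS1. H2AC7, H2BC7 and H3C4 had 8 reads at a shared summit, H3C4 had 6 more at a second interval, H4C4 had 7 and H3C6 had 6. Over the siNEG local background, the highest siEWS-FLI pileup that would not have been called at these sites lay between 4 and 6 reads. Over the genome average of the siEWS-FLI library it was 3. From H4C6 to H2BC9, the genes H4C6, H4C7, H3C7 and H2BC9 had no summit within 10 kb in either list, and neither did H1-4.

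**Figure D2:**
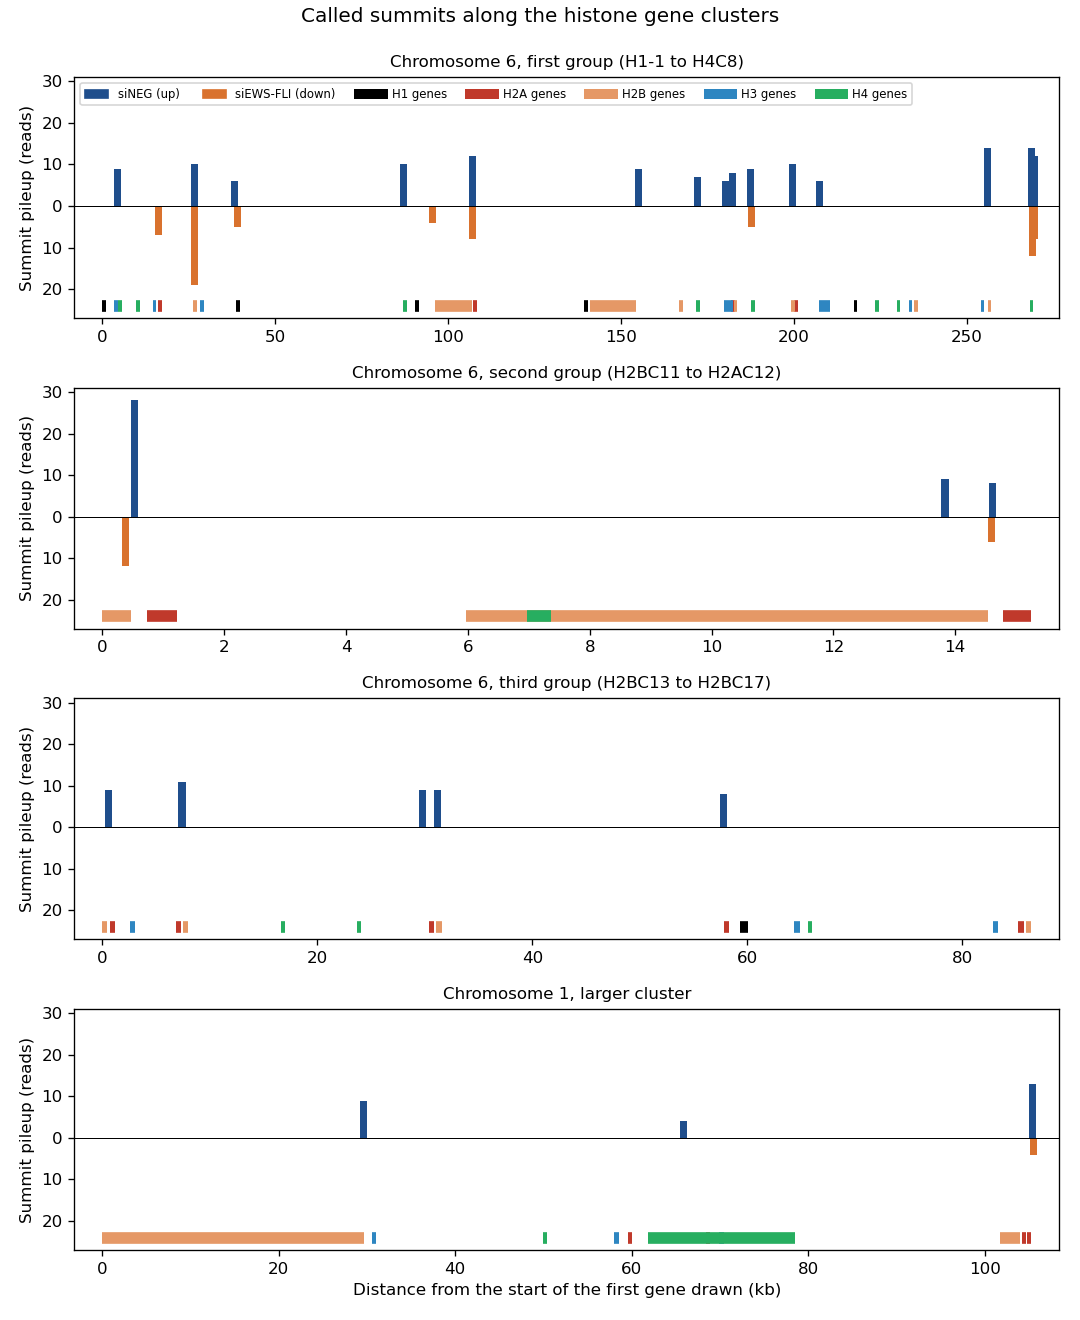
Pileup in reads of each summit within 10 kb of a histone gene and inside the drawn span (bars up for siNEG, down for siEWS-FLI, 1 library each) against distance in kb along 3 groups of histone genes on chromosome 6 and the larger cluster on chromosome 1; coloured blocks mark genes by class, and the H2AC1 and H2BC1 pair is not drawn. The H2BC11 site is the tallest siNEG bar at 28 reads, H2BC3 the tallest siEWS-FLI bar at 19, and the third group has no siEWS-FLI bar.

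The second group on chromosome 6, 5 members from H2BC11 to H2AC12 over 15.2 kb, held the strongest site of all. H2BC11 and H2AC11, a divergent pair with a gap of 247 bases, had 28 siNEG reads (18.6 to 40.5) at a summit 46 bases upstream of the H2BC11 start. With siEWS-FLI they had 12 reads (6.20 to 21.0) at a summit 147 bases away, inside H2BC11. The ratio of 0.429 (0.199 to 0.870) excludes equal pileups and includes both library ratios. H2BC12 and H2AC12 shared a site of 8 siNEG and 6 siEWS-FLI reads (ratio 0.750, 0.214 to 2.46) and had another with 9 siNEG reads alone. H4C9, the H4 gene inside the H2BC12 transcript unit, had no summit within 1 kb.

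The third group, 16 members from H2BC13 to H2BC17 over 86.4 kb, had siNEG sites and no siEWS-FLI site at its genes. Within 1 kb 7 genes had a siNEG summit and 0 a siEWS-FLI summit, on 5 siNEG intervals of 8 to 11 reads. Over all protein-coding genes the shares were 34.1% and 12.3%, and 11.3% of siNEG intervals of that strength overlapped a siEWS-FLI interval. Nothing particular to this group is read from its 0. H2AC14 and H2BC14 had 11 reads (5.49 to 19.7), and H2BC13 with H2AC13 had 9. H2AC15 had 9 reads at each of 2 intervals, 1 of them shared with H2BC15, and H2AC16 had 8. Over the siNEG local background, a siEWS-FLI pileup of 5 or fewer would not have been called at any of them. Over the genome average of the siEWS-FLI library the limit was 3. Within 10 kb 15 of 16 genes (93.8%) had a siNEG summit, against 49.5% of all protein-coding genes. With overlapping windows, these 15 genes rest on 6 siNEG intervals. H2AC17 and H2BC17 had summits of 10 siNEG and 5 siEWS-FLI reads within 10 kb, in separate intervals near tRNA genes beyond the cluster. The difference between the groups was not tested.

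On chromosome 1, the larger cluster of 11 members from H2BC18 to H2AC21 over 105 kb had 4 genes with a siNEG and 2 with a siEWS-FLI summit within 1 kb. Those shares were 36.4% and 18.2%, against 34.1% and 12.3% of all protein-coding genes, so the siNEG share lay close to that of all genes. H2AC20 and H2AC21 shared an interval of 13 siNEG reads (6.92 to 22.2) and 4 siEWS-FLI reads (1.09 to 10.2), the lowest pileup called in that list. The ratio of 0.308 (0.0731 to 0.996) was the lowest among the 8 shared intervals. H2BC18 and H3C13 had 9 siNEG reads and no siEWS-FLI interval. The stretch from H4C14 to H3C15 holds near-identical copies. The promoters of H4C14 and H4C15 matched in 300 of 300 bases, those of H3C14 and H3C15 in 296 of 296 and those of H2AC18 and H2AC19 in 299 of 299. None of these 6 genes had a summit within 1 kb. How reads that fit both copies were placed is not given in the sources used here, so nothing is read from the lack of a call there.

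The smaller pair on chromosome 1, H2AC25 and H2BC26, had a site in both libraries. They stand head to head with a gap of 229 bases. The siNEG summit of 9 reads (4.12 to 17.1) and the siEWS-FLI summit of 8 (3.45 to 15.8) both lay in that gap, 81 bases apart, a ratio of 0.889 (0.298 to 2.60). Outside chromosomes 6 and 1, H4C16 on chromosome 12 had 9 siNEG reads and no siEWS-FLI interval. H1-7 had a siEWS-FLI summit of 4 reads within 10 kb, inside ZNF641. H1-8, H1-10 and H2BC12L had no summit within 10 kb in either list.

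Overlap between the libraries can be read interval by interval. Of 28 siNEG intervals at histone gene ends 8 (28.6%) overlapped a siEWS-FLI interval, against 28.3% of those at all protein-coding gene ends. Of 12 siEWS-FLI intervals 8 (66.7%) overlapped a siNEG interval, against 84.8%. Sharing follows strength, so it was also read by class of siNEG pileup. At 8 to 11 reads 3 of 18 histone intervals were shared (11.3% at all gene ends), at 12 to 19 reads 4 of 5 (25.5%), at 20 or more 1 of 1 (63.7%), and at 4 to 7 reads 0 of 4 (5.41%). The 8 shared histone intervals had a median ratio of 0.708 and a median siNEG pileup of 12 reads, and the 1663 shared ones at all gene ends had 0.273 and 30 reads. At 12 to 19 siNEG reads the medians were 0.667 over 4 histone intervals and 0.462 over 313. Shared intervals are those strong enough to be called in each list, which by itself raises the ratio at weak sites. Within 10 kb, 8 of 30 siNEG intervals were shared (26.7%, against 23.1% for all genes), and 8 of 14 siEWS-FLI intervals (57.1%, against 65.1%).

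**Figure D3:**
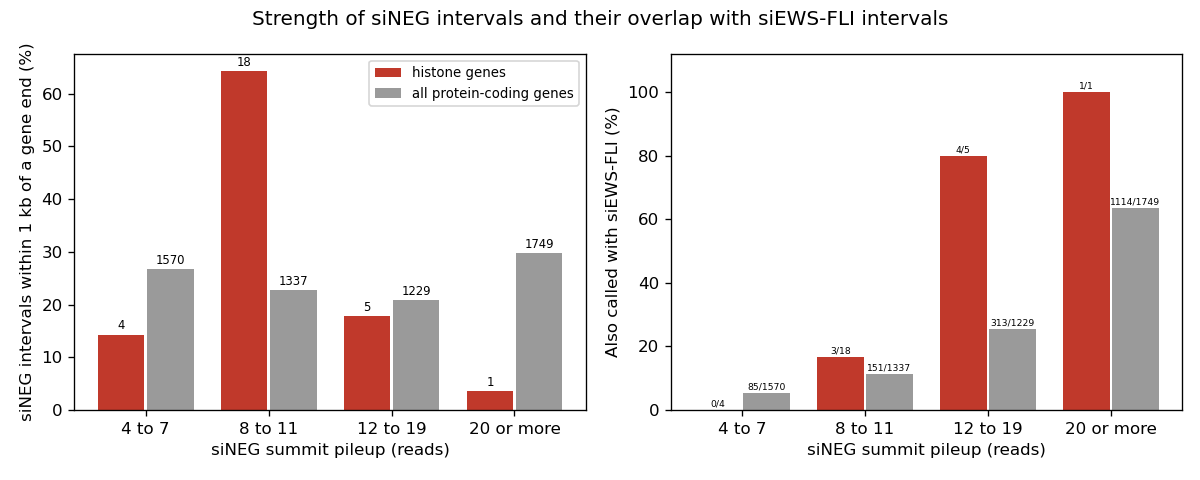
Left, the percentage of siNEG intervals within 1 kb of a gene end in each class of siNEG pileup, for histone genes (red, 28 intervals) and all protein-coding genes (grey, 5885), with counts above the bars; right, the percentage of each class that overlaps a siEWS-FLI interval, with shared over total. Histone intervals concentrate at 8 to 11 reads, 18 of 28, and 4 of 5 at 12 to 19 reads were shared.

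**Figure D4:**
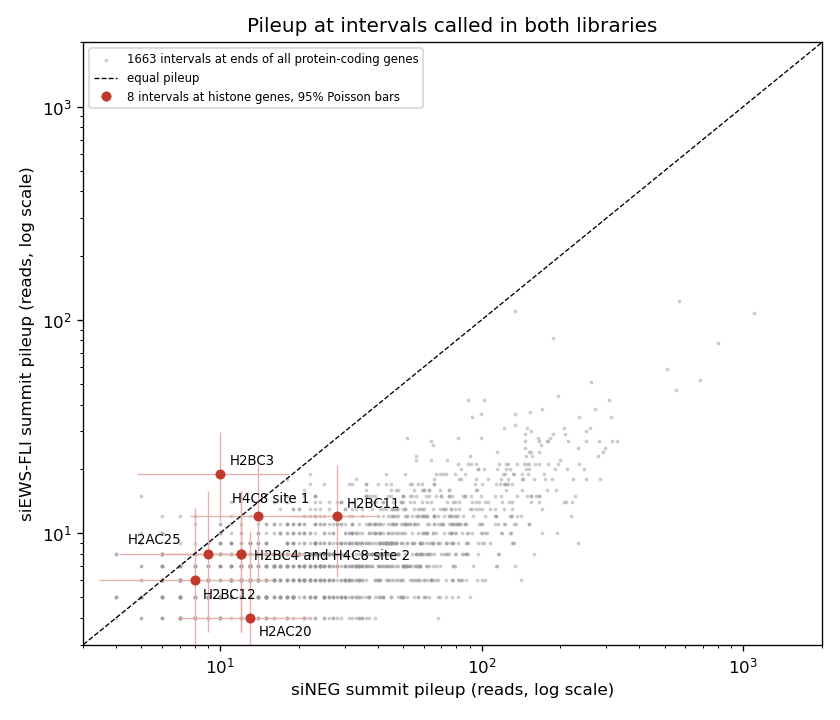
siEWS-FLI against siNEG summit pileup in reads, both axes log scaled, for the 8 shared intervals at histone gene ends (red, with 95% Poisson bars, labelled by the first gene of each) and the 1663 shared intervals at all protein-coding gene ends (grey); the dashed line marks equal pileup. H2BC3 lies above the line, at 10 and 19 reads, and H2BC11 is the farthest right of the red points, at 28 and 12.

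Summits were placed by their distance from a start and by whether they fell inside the 300-base promoter. Of the 28 siNEG summits 18 (64.3%) lay within 250 bases of the start of a histone gene with a promoter entry, against 66.2% at all protein-coding gene ends. With siEWS-FLI 7 of 12 (58.3%) did, against 61.2%. Inside a promoter lay 13 siNEG summits (46.4%, against 53.5% at all gene ends) and 4 siEWS-FLI summits (33.3%, against 47.7%). All 4 shares were lower at histone genes, with no test of the difference. There were 12 divergent pairs with a gap under 1 kb in which both strands were known. Of these, 9 had a siNEG and 4 a siEWS-FLI summit within 1 kb of the pair, and in 6 and 2 of them the strongest summit lay in the gap itself. Of the 24 genes in pairs 17 had a siNEG summit within 1 kb, against 16 of the other 43 genes with a strand. A gap of about one peak's width lets 1 summit count for both genes.

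The extended ETS site was in a smaller share of histone promoters than of all promoters, and the octamer, the CCAAT box and the TATA box were in larger shares, with no test of the difference. The searched motifs, on both strands of the 300 bases, were the ETS core GGAA, the extended ETS site CCGGAAG, the paired core GGAAGGAA, the octamer ATTTGCAT, the NF-Y box CCAAT and the TATA box as TATAAA. The extended site and the paired core contain the core. The ETS core was in 64 of 67 histone promoters (95.5%) and in 96.3% of 15842 protein-coding genes. The extended ETS site CCGGAAG was in 5 of 67 (7.46%) against 16.5%, and in 1 of 33 with a siNEG summit within 1 kb. Over all genes 69.2% of those with CCGGAAG had such a summit and 29.7% of those without. The paired core GGAAGGAA was in 1 of 67 histone promoters (1.49%) against 4.94%. That promoter, of H4C6, is shown above, and the gene had no summit within 10 kb. Among all genes, the siNEG shares at 1 kb were 32.4% with the paired core and 36.5% without it. With 1 histone gene, nothing is read from its lack of a summit.

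The motifs of histone transcription split by class. CCAAT was in 83.6% of histone promoters against 42.1% of all, in every H2A, H2B and H3 promoter of the table and in 3 of 13 H4 promoters. TATAAA was in 65.7% against 12.4%. The octamer was in 14 of 18 H2B and 11 of 16 H2A promoters, 1 of 11 H3 and none of 13 H4 or 9 H1 promoters, against 2.22% of all genes. Of 26 histone genes with an octamer 18 had a siNEG and 9 a siEWS-FLI summit within 1 kb, against 15 and 5 of 41 without. Over all genes the siNEG shares with and without it were 29.3% and 36.4%, and the siEWS-FLI shares 12.8% and 13.5%. Divergent genes share both the octamer and the summit, and this was a description with no test. At H2BC11 and H2BC10, printed above, the siNEG summit fell on the octamer itself. Over the 8 distinct siNEG summits in octamer promoters of histone genes the distance ran from 0 to 164 bases with a median of 52.5, against a median of 82 over 40 such summits of all genes, a measure chosen after its values were seen. The median GC content of histone promoters was 43.7%, against 62.3% for all.

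**Figure D5:**
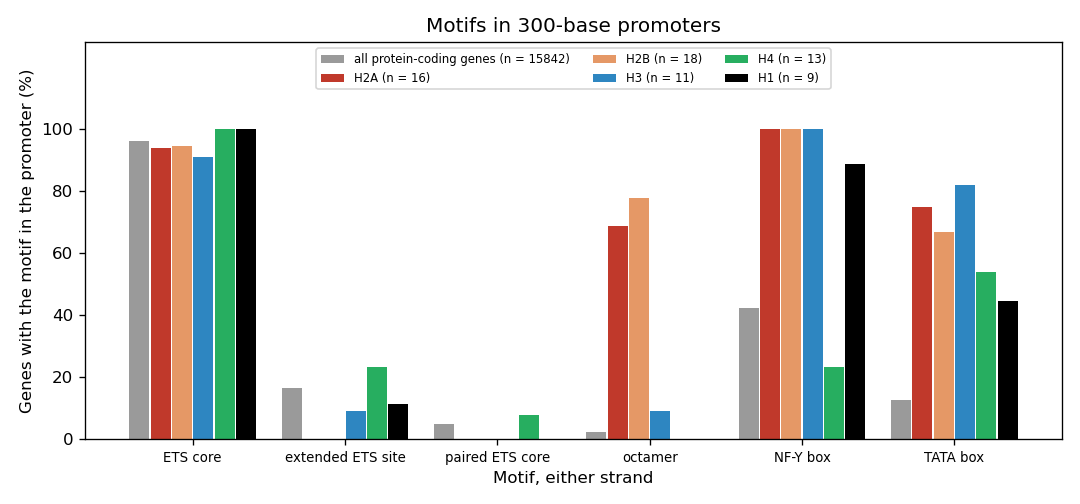
Percentage of genes whose 300-base promoter holds each motif on either strand, for all protein-coding genes (grey) and for the histone classes; the motifs are those spelled out in the text. The octamer bars are tall for H2A and H2B and at 0 for H4 and H1, while the ETS core is at 90.9% or more in each class.

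Genes that make and carry histones were called more often than the histone genes themselves. Of 19 factors of histone gene transcription and mRNA end formation, 15 (78.9%) had a siNEG and 10 (52.6%) a siEWS-FLI summit within 1 kb, with a median siNEG pileup of 15 reads. ZNF473, a U7 particle zinc finger, had 153 siNEG reads (130 to 179) and 37 siEWS-FLI reads (26.1 to 51.0). SYMPK, a scaffold of the cleavage complex, had 58 and 6. NPAT, the coactivator that switches on histone genes in S phase, had 57 (43.2 to 73.9) and 12 (6.20 to 21.0). CSTF2 and INTS11 each had 53 with siNEG, and 11 and 7 with siEWS-FLI. The other genes with a siEWS-FLI summit were POU2F1, CPSF3, ZFC3H1, ERI1 and CDK2, with 5 to 10 reads. SLBP, which binds the stem-loop, had 11, HINFP, an activator of H4 genes, 17, and CASP8AP2 7 siNEG reads with no siEWS-FLI summit. LSM10, LSM11 and CPSF2 had no summit within 1 kb in either list.

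Of 19 histone chaperones and partners 17 (89.5%) had a siNEG and 7 (36.8%) a siEWS-FLI summit within 1 kb, with a median siNEG pileup of 17.5 reads. DAXX, a carrier of H3.3, had a pair of shared sites, one of 83 siNEG (66.1 to 103) and 11 siEWS-FLI reads, the other of 29 and 12. RBBP4 had 43 and 9, ASF1B 39 and 11, and CHAF1A, of the replication-coupled assembly factor, 37 and 7. NASP had 19 and 10, IPO4 21 and 7, and NAP1L1 6 and 4 in intervals that do not overlap. Of 13 replacement histone variants, histone genes outside the rule, 4 (30.8%) had a siNEG and 3 (23.1%) a siEWS-FLI summit. H2AZ2 had 21 siNEG reads, H2AX 12 and H3-3A 7, with no siEWS-FLI summit within 1 kb, and CENPA, the centromere variant, had 10 and 9. MACROH2A2 and H2AZ1 had siEWS-FLI summits alone, of 8 and 4 reads. The siNEG share over all protein-coding genes was 34.1% and the siEWS-FLI share 12.3%; the lists were not tested against each other.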

How the data were processed

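Peak lists of 2 CUT&Tag libraries of TC32 cells were used, 1 per group. The submitters' processing notes list MACS2 2.2.9.1, Bowtie2 2.4.5, Trim Galore 0.6.6 and the hg38 build, with no roles. Whether a control library was used, and how duplicate and multiply mapped reads were handled, is not given in the sources used here. Libraries were amplified by 14 and then 20 cycles of PCR, per the labels' protocols. The deposited columns used are the fold enrichment (a ratio), the −log10 p-value, the −log10 q-value and the summit; the deposited score was not used. Each list was called per library.

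Lines sharing an interval were merged at the highest −log10 q. The summit pileup was solved as the whole number matching both the deposited fold (pileup plus 1 over background plus 1) and −log10 p (Poisson upper tail), within 0.001 in log10 p, growing in proportion above 10. This succeeded for 100% of intervals and was tested on simulated data. Local backgrounds lay on the grid of reads extended to 200 bases in 10 kb windows. Intervals on pileups are exact Poisson, and on ratios exact conditional binomial, at 95%. PCR copies are not independent molecules, so intervals cover counting error only. The lack of a call does not show that a site had no reads. The reads that would stay uncalled use the lowest −log10 p of the other list and leave out the caller's minimum width. The higher siEWS-FLI limit uses the siNEG local background, from a library with more reads, and the lower one the siEWS-FLI genome average.

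Gene ends and promoters came from RefSeq GRCh38.p14. A gap over 500 kb between members opened a new group; overlaps were of at least 1 base. The members, lists and tests were chosen with earlier results of these data known. Every member is named or counted, and the values of 1 item are not reported here; full values were given to members with a siEWS-FLI summit within 1 kb, the strongest siNEG intervals, and the strongest interval of each group and class. From each other list the 4 strongest by siNEG pileup and those with a siEWS-FLI summit were named, and further genes for their known role. The H2BC3 promoter and the distance from summit to octamer were chosen after their values were seen. Python 3.11.15, scipy 1.17.1 and pandas 2.3.3 were used.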

Additional observations from a re-analysis of the deposited data

Results flagged for a closer look

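Near H3C9P, an H3 pseudogene on chromosome 6 that the rule leaves out, summits were called within 1 kb of the gene and of no histone gene counted above. The siNEG pileups were 9 and 16 reads (95% Poisson intervals 4.12 to 17.1 and 9.15 to 26.0) and the siEWS-FLI pileup was 9 reads (4.12 to 17.1). They are given because no comparison of the histone genes within 1 or 10 kb uses them, though the 50 kb window below reaches them. A called summit has at least 4 reads in either list. A pileup above the 3 reads that a count of 0 allows is thus true of each one. Of 19 pseudogenes and non-coding loci with such symbols, none but H3C9P had such a summit.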

How the results depend on the processing

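There were 14 alternative settings for 8 results, 76 values in all, of which 58 stayed within 1.5 times the reported count or, for the median pileup, within its Poisson interval. At −log10 q of at least 5 the counts of histone genes were 13 (siNEG, 1 kb), 6 (siEWS-FLI, 1 kb), 25 (siNEG, 10 kb) and 10 (siEWS-FLI, 10 kb), on 10 and 11 siNEG intervals within 1 and 10 kb, 3 of them shared. With intervals wider than 200 bases alone, siEWS-FLI counts were 9 within 1 kb and 13 within 10 kb, and 5 intervals were shared. With lists of equal length siNEG counts were 7 and 13 on 5 intervals within either window, 2 of them shared. A window of 50 kb in place of 10 gave 58 genes with siEWS-FLI, 52 siNEG intervals and 13 shared ones. Stricter lists hold fewer intervals by construction. A −log10 q of at least 2, leaving out the linker histone genes outside the S-phase clusters, distance to the transcription start, windows of 500 bases, 2, 5 or 20 kb, any base of the interval in place of its summit, and other definitions of overlap left each count within 1.5 times. With 1 library per group no replicate could be left out. At 4 to 28 reads a site, counting error alone spans several-fold.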
